A study of Caenorhabditis elegans with 2 samples.

Results

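SNPC-3.4 is a worm homologue of one of the proteins that make up SNAPc, the complex that activates small nuclear RNA (snRNA) genes. Of its 2075 nuclear regions in chromatin immunoprecipitation and sequencing (ChIP-seq), 234 lay inside genes and far from annotated protein-coding and small RNA promoters. These gene-internal regions were chosen by position alone. The summit had to lie in an annotated gene other than a piRNA gene, more than 500 bp from every protein-coding 5' end and more than 250 bp from every tRNA, snRNA, snoRNA, rRNA, piRNA and spliced leader gene 5' end. By the summit base, 155 were exonic and 79 intronic.

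The data came from young adult hermaphrodites of Caenorhabditis elegans strain YL497, a stable transgenic line in which SNPC-3.4 (T02C12.2) carries a GFP-FLAG tag at its C-terminus, and the precipitation used an antibody to GFP. Whole animals were used, so no tissue or cell type can be assigned to a region. Replicates 1 and 2, both biological, formed the only group. With no second group and no read counts, depth is unknown and no test between conditions was possible, so the values below are descriptions with their intervals.

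As background, SNAPc binds a proximal sequence element upstream of snRNA genes and some other small RNAs. It recruits RNA polymerase II or III to them. In nematodes the SL2 spliced leader RNAs, whose ends are joined to many mRNAs by trans-splicing, are transcribed from promoters of the same kind. tRNA genes carry their promoter inside the gene, in the A and B boxes. Worm genes are closely packed, so the 3' ends of neighbouring genes on opposite strands often face each other across a short gap.

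Some of these regions carried the kind of sequence found before snRNA and SL2 genes, and it is shown first because these regions lay more than 250 bp from the 5' end of any such gene. Among 8-base words, CGGAACCC was the most frequent 20 to 80 bp upstream of snRNA and SL2 genes, being present at 31 of 130 such genes (23.8%). The sequences below start 15 bases before the word and end 45 bases after it, 5' to 3' on the strand of the word, from the RefSeq genome of the WBcel235 build. Capitals mark the word and, where it begins 6 bases later, TGTC. The first lines are intronic regions in sre-45 (chrII:13522007-13522074, plus strand), C33B4.4 (chrII:11376935-11377002, minus strand), clec-80 (chrIV:2825866-2825933, minus strand) and T22D1.3 (chrIV:6914411-6914478, minus strand). The next is the exonic region of linc-154 (chrX:2328911-2328978, plus strand). The last lines are upstream of the snRNA gene R07E5.16 (chrIII:10989594-10989661, plus strand) and the SL2 gene sls-2.8 (chrIII:12250388-12250455, plus strand).
sre-45: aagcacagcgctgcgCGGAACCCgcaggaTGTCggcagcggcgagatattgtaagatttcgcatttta
C33B4.4: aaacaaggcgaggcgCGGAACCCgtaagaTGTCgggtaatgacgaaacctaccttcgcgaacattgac
clec-80: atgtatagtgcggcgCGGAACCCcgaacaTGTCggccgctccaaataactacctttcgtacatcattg
T22D1.3: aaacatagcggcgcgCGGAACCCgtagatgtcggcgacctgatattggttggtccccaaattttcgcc
linc-154: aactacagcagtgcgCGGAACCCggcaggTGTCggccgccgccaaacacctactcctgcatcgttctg
R07E5.16: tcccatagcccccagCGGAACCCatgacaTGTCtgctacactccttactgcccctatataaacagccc
sls-2.8: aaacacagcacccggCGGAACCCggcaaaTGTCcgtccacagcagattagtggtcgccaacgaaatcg

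On either strand within 100 bp of the summit, CGGAACCC was found in 10 of 79 intronic regions (12.7%, 95% Wilson interval 7.02 to 21.8%). It was found in 2 of 155 exonic regions (1.29%, 0.355 to 4.58%) and in 62 of the other 1841 nuclear regions (3.37%). Of windows of the same length tiled over the nuclear genome 0.285% held it, and of those centred on eligible intron 0.361%. Any of the 10 most frequent upstream words was present in 13 of 79 intronic regions (16.5%) and 7 of 155 exonic regions (4.52%), against 138 of the other 1841 (7.50%) and 1.55% of tiled windows. The 10 words overlap one another.

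The word followed after 6 free bases by TGTC, a pattern chosen after the sequences had been seen, was present in 7 of 79 intronic regions (8.86%, 4.36 to 17.2%), in 2 of 155 exonic regions and in 51 of the other 1841 regions (2.77%). It lay within the 80 bp upstream of 23 of 130 snRNA and SL2 genes (17.7%), and in 0.111% of tiled windows. The pattern is common in introns and mostly without a region: of 304 matches in introns far from 5' ends, 8 had a thresholded summit within 100 bp, in 7 regions. Of 668 matches in the whole nuclear genome, 67 did. A match is a run of letters and not a shown binding site.

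The intronic regions with the word had the higher median. Their signal, the authors' value for a region, whose scale is not stated, had a median of 92.9 in the 10 with CGGAACCC and of 64.4 in the 69 without it. The range in those with the word was 52.7 to 353. Their median GC content within 100 bp was 51.7%, against 37.3% without the word, and the part of GC content in this was not tested. The highest region with the word and no other RNA gene within 250 bp lay in the third and last intron of sre-45, a chemoreceptor gene on chromosome II. It had a signal of 301 in the pooled list, 122 in replicate 1 and 178 in replicate 2, and it ranked 57 among all pooled regions. Its word was centred 1 bp from the summit, and all 31-base words around it were unique in the genome. The 5' end of the snoRNA gene F54F11.6 was 726 bp away and the next thresholded region 568 bp away. Of the 10 intronic regions with the word, 2 lay within 1000 bp of the 5' end of a small RNA gene of the classes in the rule. The highest of the 10, that of ints-8 at 353, is not one of these. It lay 30 bp upstream of rpr-1, a non-coding RNA gene outside those classes.

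In the first intron of C33B4.4, also on II, the signal was 134 in the pool, 50.5 in replicate 1 and 91.4 in replicate 2. In clec-80, a C-type lectin gene on IV, it was 101 in the pool, 50.9 in replicate 1 and 59.7 in replicate 2. The region in rft-2, a riboflavin transporter gene on V, had 97.2 and held the word on each strand, 50 bp to one side of the summit and 52 bp to the other. Not every copy could be placed with the same certainty. Of the 31-base words around the summit, 34.5% were unique at T22D1.3 on IV and 0% at cec-10 on I.

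Among all gene-internal regions signal was low to moderate, with a short upper tail. The median was 64.1 over exonic regions (quartiles 55.3 and 82.9, highest 306) and 64.9 over intronic regions (55.1 and 89.4, highest 353), against 71.7 over all nuclear regions. Of the candidate regions with the same position, 234 of 12947 were in the authors' thresholded list (1.81%, 1.59 to 2.05%), where 6.92% of all nuclear candidates were. The share was 2.47% in exons and 1.18% in introns.

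Each replicate alone held most of these regions, and fewer were held by both than in the list as a whole. Of the 234, 169 overlapped one of the 2101 highest regions of replicate 1 (72.2%, 66.2 to 77.6%), where 72.4% of all nuclear regions did. For replicate 2 the number was 163 (69.7%, 63.5 to 75.2%), where 83.6% of all did. In both replicates together the share was 47.9% (41.5 to 54.2%) against 59.3% of all nuclear regions, and 14 were among the highest of neither. Each replicate is part of the pool, which is therefore not independent of it.

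Signal in replicate 2 stood on a higher scale. The median was 29.4 in replicate 1 and 37.7 in replicate 2 over exonic regions (mean of the medians 33.5 ± 5.92, SD, n = 2), and 26.5 and 40.7 over intronic regions (33.6 ± 9.98, SD, n = 2). The median log2 ratio of replicate 2 to replicate 1 was 0.53 over these regions and 0.75 over all nuclear regions. Of 232 regions in both candidate lists, 179 had the higher value in replicate 2. Across these regions the Spearman rank correlation between the 2 replicates was 0.292, against 0.461 over all nuclear regions. The highest regions were high in both lists, as the plot of signal in the 2 replicates shows.

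**Figure D1:**
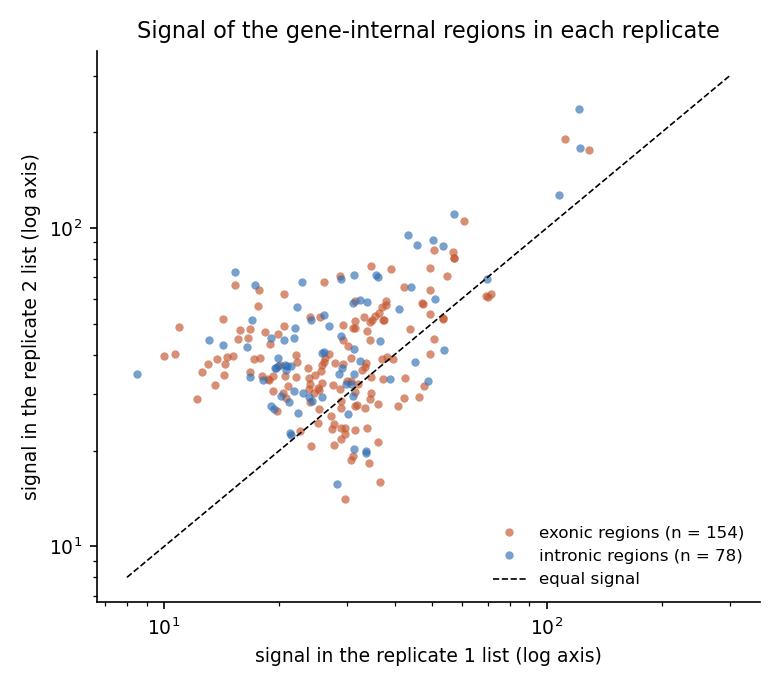
Signal of each exonic (n = 154) and intronic (n = 78) region in the candidate list of replicate 2 against that of replicate 1, both axes logarithmic, with a dashed line at equal signal. Most points lie above the line (179 of 232), and 5 points lie above 100 in both lists.

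Exonic regions were densest in 3' untranslated regions (UTRs). Counted per megabase (Mb) of bases that meet the same distance rule, there were 30.02 regions in 3' UTRs (79 regions, exact Poisson 95% interval 23.8 to 37.4). There were 9.47 in exons of non-coding genes (26 regions, 6.18 to 13.9), 2.79 in coding sequence (CDS; 49 regions, 2.06 to 3.69) and 3.02 in introns (79 regions, 2.39 to 3.77). A single region lay in a 5' UTR, that of C34C12.2. Outside genes, at the same distance from 5' ends, there were 12.0 per Mb (10.6 to 13.4). Among the 2101 highest regions of each replicate, 3' UTRs held 46.0 per Mb in replicate 1 and 31.5 in replicate 2 (38.8 ± 10.2, SD, n = 2). CDS held 5.81 and 2.68 per Mb (4.24 ± 2.21), so in each replicate taken alone the 3' UTR was several times denser.

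**Figure D2:**
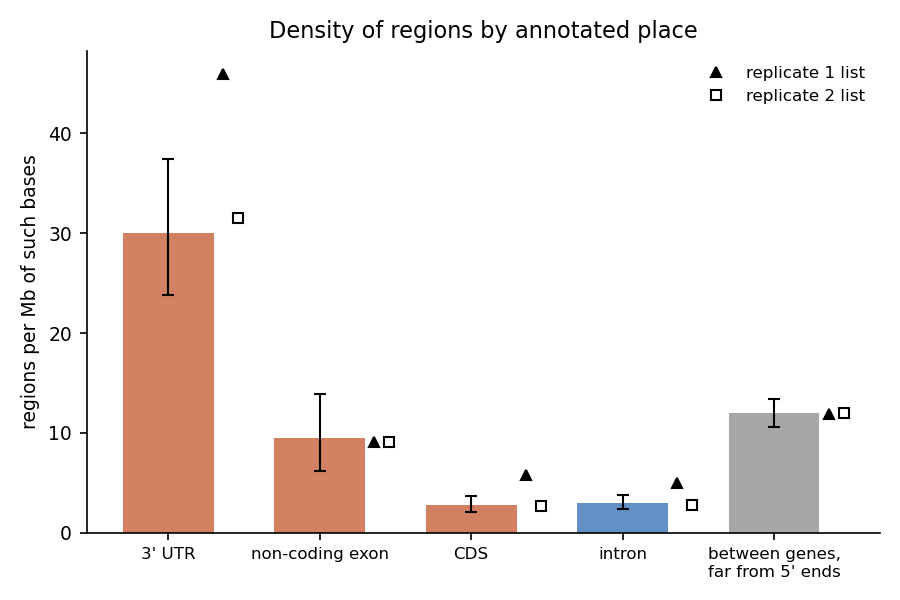
Thresholded regions per Mb of annotated bases that are far from 5' ends, by place, for exonic places, introns and, last, bases between genes. Bars are the pooled list with exact Poisson 95% intervals, triangles and squares the highest regions of replicates 1 and 2, and the 3' UTR bar is the tallest at 30.02 per Mb.

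Exonic regions gathered at the 3' ends of genes. Of 155 exonic regions, 108 had their summit within 250 bp of the 3' end of a protein-coding transcript (69.7%, 62.0 to 76.4%), where 17.2% of eligible exonic bases are that close. The median distance was 113 bp over exonic regions and 1624 bp over intronic ones. Density fell step by step with distance, at 43.1 per Mb within 50 bp of a 3' end, 32.8 at 51 to 100 bp, 25.04 at 101 to 150 bp, 16.0 at 151 to 200 bp and 7.93 at 201 to 250 bp. It was 2.70 per Mb at 501 to 1000 bp and 1.53 beyond 1000 bp. The order was the same in replicate 1, with 55.5 per Mb within 50 bp and 3.21 beyond 1000 bp, and in replicate 2, with 38.3 and 1.93.

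A 3' end in this genome can lie close to the next gene's start, so the distances to 5' ends were read as well. For these 108 regions the next protein-coding 5' end downstream on the same strand was a median of 4417 bp away and within 1000 bp in 6 cases. The nearest protein-coding 5' end of any kind was a median of 1317 bp away and within 1000 bp in 31 cases. By the rule, none of these distances could be 500 bp or less. Over exonic bases more than 1000 bp from every protein-coding 5' end, density was 46.3 per Mb within 50 bp of a 3' end, 9.36 at 201 to 250 bp and 1.31 beyond 1000 bp.

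Most of those near a 3' end lay where genes on opposite strands end next to each other. Of the 155 exonic regions, 78 (50.3%, 42.5 to 58.1%) had protein-coding 3' ends of both strands within 250 bp. Such bases make up only 0.824 Mb of eligible exon, and their density was 94.6 regions per Mb (74.8 to 118). With a 3' end on 1 strand within 250 bp the density was 9.53 per Mb (30 regions, 6.43 to 13.6), and with none it was 2.45 per Mb (47 regions, 1.80 to 3.26). In replicate 1 the densities were 126, 15.9 and 5.07 per Mb, and in replicate 2 they were 87.3, 9.53 and 2.82. The same order held between genes, far from 5' ends, with 182 per Mb (22 regions, 114 to 276) near 3' ends of both strands, 45.1 with 1 strand and 7.96 with neither. This division was made after the distances had been seen.

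Where both strands end, coding sequence was about as dense as 3' UTRs in the pool, and its value was the lower one in each replicate. Next to 3' ends of both strands, CDS held 93.8 regions per Mb (32 regions, 64.2 to 132) and 3' UTRs 95.4 (46 regions, 69.8 to 127). In replicate 1 CDS held 106 per Mb (36 regions) and 3' UTRs 141 (68 regions), and in replicate 2 they held 64.5 (22 regions) and 104 (50 regions). No intervals were taken for the replicates, so whether they differ from the pool in this is not settled. With a 3' end on 1 strand, CDS held 3.70 per Mb and 3' UTRs 13.7 (20 regions, 8.36 to 21.1). With neither, CDS held 0.705 and 3' UTRs 18.9 (13 regions, 10.1 to 32.3). Within 3' UTRs, then, the value with 1 strand was not above that with neither, and the intervals overlap. Replicate 1 gave 23.3 with 1 strand and 27.6 with neither in 3' UTRs, and replicate 2 gave 12.3 and 21.8. Of the candidate regions on exonic bases with 3' ends of both strands nearby, 12.6% were in the thresholded list, against 1.02% where neither strand had one. The median signal was 65.1 with 3' ends of both strands and 62.1 with neither.

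**Figure D3:**
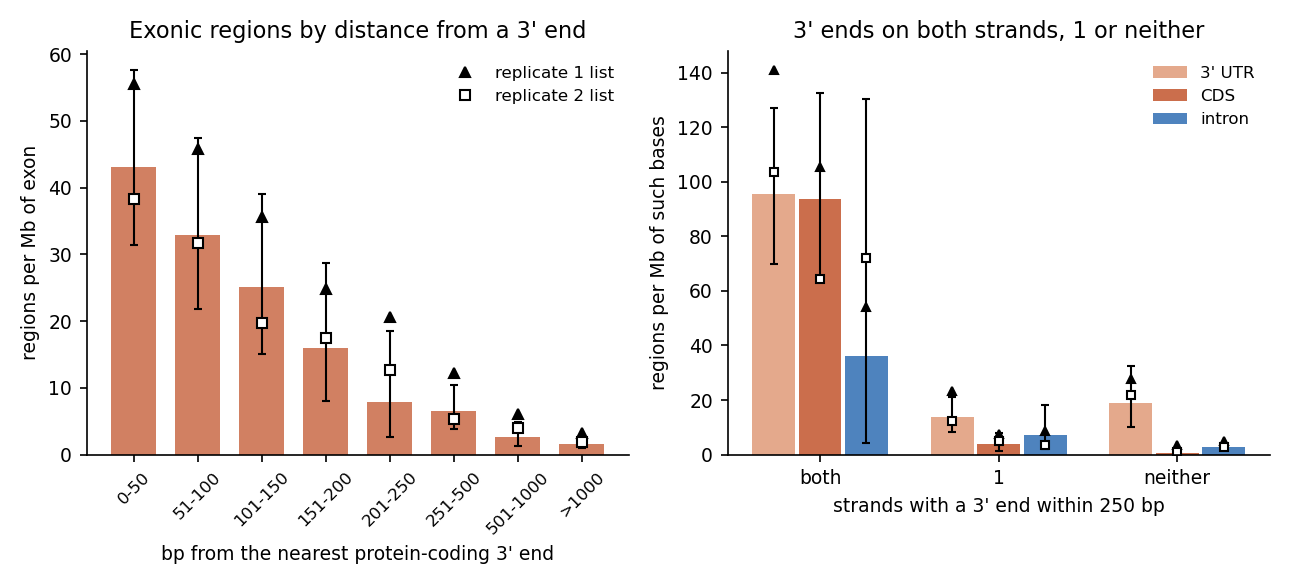
Left, exonic regions per Mb of exon by distance from the nearest protein-coding 3' end. Right, regions per Mb in 3' UTRs, CDS and introns by whether both strands, 1 strand or neither have a 3' end within 250 bp; bars are the pooled list with exact Poisson 95% intervals, triangles replicate 1 and squares replicate 2. The bars fall from 43.1 to 1.53 on the left, and on the right the 3' UTR and CDS bars are near 95 where both strands end.

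The highest of these convergent regions lay in rib-2, a heparan sulfate glycosyltransferase gene on III that ends opposite ran-1, the gene of the Ran GTPase. Its signal was 152 in the pool, 57.3 in replicate 1 and 80.6 in replicate 2. A second region, in ran-1 with its summit 201 bp away and 73.6 in the pool, overlapped the same regions of both replicates. Both are counted among the convergent regions. Between rpl-3, which encodes a protein of the large ribosomal subunit, and tir-1 it was 146 in the pool, 60.8 in replicate 1 and 105 in replicate 2, with the summit 4 bp from the end of rpl-3 and 7 bp from that of tir-1. The region in F31E3.12 faced eef-1A.1, a translation elongation factor gene, and had 136 in the pool, 56.9 in replicate 1 and 84.1 in replicate 2. All of these lay on chromosome III and were higher in replicate 2.

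In lmd-2 on I, opposite the ribosomal protein gene rpl-4, the signal was 135 in the pool, 50.8 in replicate 1 and 85.4 in replicate 2. In ZK418.11 on III, opposite cpg-2, which encodes an eggshell proteoglycan, it was 133 in the pool, 70.3 in replicate 1 and 60.6 in replicate 2. In lin-29 on II, which encodes a zinc finger factor of developmental timing and ends opposite hmg-12, it was 129 in the pool, 54.9 in replicate 1 and 70.5 in replicate 2. Not among the convergent regions was that of the kinesin gene klp-18 on IV, needed for the meiotic spindle. It lay 21 bp from the 3' end of klp-18, with 123 in the pool, 71.6 in replicate 1 and 62.2 in replicate 2. ZK418.11 and klp-18 were higher in replicate 1, against the general scale. The convergent regions ran from 51.3 to 152, and in 43 of the 78 the annotated transcripts shared at least 1 base at their ends, whereas in 35 they did not.

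Counted by gene, the annotation holds 2337 pairs of protein-coding genes on opposite strands whose 3' ends lie within 250 bp of each other. Of these 77 had a gene-internal region within 250 bp of both ends (3.29%, 2.64 to 4.10%). Where 1 of the genes also had a region at its promoter the share was 9.19% (33 of 359, 6.62 to 12.6%), and where neither did it was 2.06% (40 of 1943, 1.52 to 2.79%). Where both did, it was 4 of 35 pairs. None of 287 pairs on X had such a region, which by the limit of 3 counts used here for every count of 0 allows a share of up to 1.05%, against 77 of 2050 on the autosomes (3.76%, 3.02 to 4.67%).

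Hosts of exonic regions had a promoter region more often than all protein-coding genes did. A thresholded summit within 500 bp of a 5' end was found for 34 of 128 genes hosting exonic regions (26.6%, 19.7 to 34.8%) and for 7 of 74 hosting intronic regions (9.46%, 4.66 to 18.3%), against 7.43% of all protein-coding genes. Among genes whose exonic region lay within 250 bp of a 3' end, the number was 26 of 104. The host genes had a median length of 2907 bp for exonic and 5125 bp for intronic regions, against 2027 bp over all protein-coding genes.

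Of the gene lists, ribosomal protein genes had the largest share of 3' ends at an exonic region, counted here whether or not the gene was the host. These were 8 of 81 symbols (9.88%, 5.09 to 18.3%), namely rla-1, rpl-3, rpl-4, rpl-30, rpl-33, rpl-35, rpl-41.2 and rps-1, against 184 of 19865 protein-coding symbols (0.926%). Several of these regions also lay little beyond 500 bp from the 5' end of the same ribosomal protein gene. The distance was 502 bp for rpl-41.2, 580 bp for rpl-30, 591 bp for rpl-35 and 610 bp for rla-1. What part nearness to those 5' ends has in this share was not tested. Germline genes had 2 of 42, him-3, of the meiotic chromosome axis, and prg-1, a Piwi protein gene. Nuclear hormone receptors had 1 of 269, homeobox genes 1 of 89, C-type lectins 1 of 237, F-box and MATH genes 1 of 388 and neuropeptide genes 1 of 140. Chemoreceptors had 0 of 1299, which allows up to 0.231%, collagens 0 of 175, histones 0 of 50, body muscle genes 0 of 16 and synaptic genes 0 of 19. No expression level was measured here, and the part that expression has in this order was not tested.

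As hosts, the same lists were spread thinly. Of all protein-coding genes 201 held a gene-internal region (1.01% of 19973). Chemoreceptor genes were hosts in 5 of 1299 cases, of which 4 were intronic and 1 exonic, led by sre-45. Nuclear hormone receptor genes were hosts in 3 of 269, led by an intron of nhr-28 on X with 90.8 in the pool, 41.0 in replicate 1 and 55.8 in replicate 2. The highest host of the C-type lectins was clec-80, of the neuropeptide genes ins-17 (85.7 in the pool, 33.3 in replicate 1 and 52.7 in replicate 2), and of the germline genes pgl-1, a germ granule gene (61.8, 20.7 and 37.2). Among F-box and MATH genes it was fbxa-199 (54.5, 27.5 and 23.4). The ceh-8 region was the only one of 89 homeobox genes and rpl-3 the only ribosomal protein host, with a further region in its CDS at 51.3.

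Of the 47 exonic regions farther than 250 bp from any 3' end, 22 lay in non-coding exons, 13 in 3' UTRs and 11 in CDS. Coding sequence far from 3' ends of either strand was the poorest exonic place, at 0.705 regions per Mb (0.352 to 1.26) in the pool. Among the highest regions of replicate 1 alone it held 3.46 per Mb, and of replicate 2 alone 1.09. The highest there was in pot-3, which encodes a telomere-binding protein, with 70.2 in the pool, 31.5 in replicate 1 and 50.9 in replicate 2. It was named after its value had been seen.

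Several of the highest gene-internal regions lay just upstream of other RNA genes that the position rule did not exclude. Of the 234 regions, 29 had their summit within 250 bp of the 5' end of a miRNA, lincRNA, antisense or otherwise unclassed non-coding RNA gene (12.4%), where 3.18% of eligible bases are that close. They made up 5 of the 10 highest, and 4 of these 5 had the summit 1 to 80 bp upstream. Those with a summit 1 to 80 bp upstream numbered 9, with a median signal of 123 against 67.2 in the other 20 and 62.6 in the 205 farther away. The plot of summit position shows them left of the start.

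**Figure D4:**
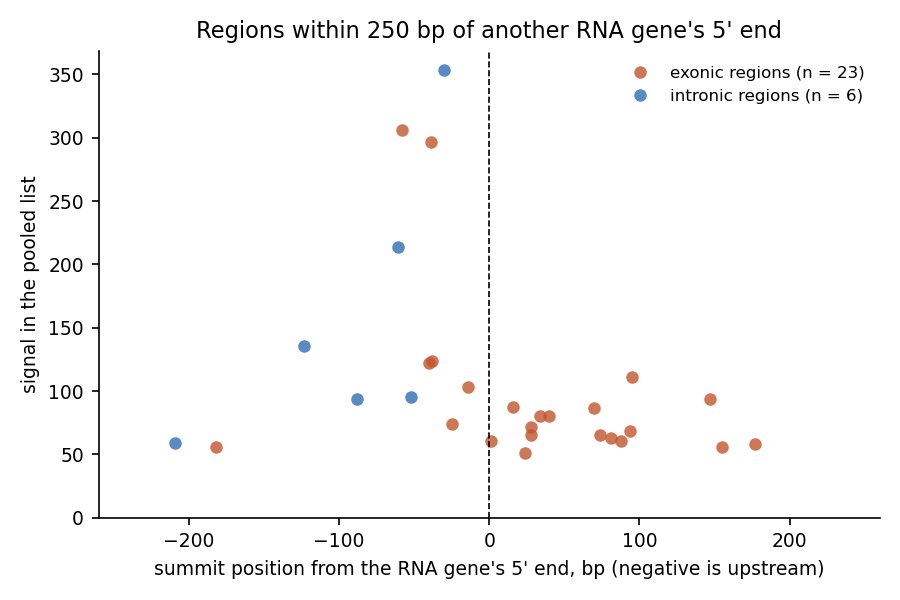
Pooled signal of the regions within 250 bp of the 5' end of a miRNA, lincRNA, antisense or other non-coding RNA gene against summit position, with negative values upstream; exonic (n = 23) and intronic (n = 6) regions are coloured apart. The 4 points above 200 all lie 30 to 61 bp upstream of the 5' end.

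The highest lay at rpr-1, the gene of the RNase P RNA, which trims the 5' ends of tRNAs. It sits in the first intron of ints-8, a gene of an Integrator subunit on I. The summit lay 30 bp upstream of rpr-1 with a signal of 353 in the pool, 121 in replicate 1 and 235 in replicate 2, and CGGAACCC was centred 35 bp from the summit. In the 3' UTR of the homeobox gene ceh-8 on I, the summit lay 58 bp upstream of the non-coding RNA gene ZK265.11, with 306 in the pool, 111 in replicate 1 and 191 in replicate 2. They were the highest gene-internal regions in the pool and in replicate 2, whereas in replicate 1 linc-154 and sre-45 stood above both.

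The miRNA genes cel-mir-8196a and cel-mir-8196b, both on X, each had a region before them. In the exon of linc-154 the summit lay 39 bp upstream of cel-mir-8196a, with a signal of 297 in the pool, 129 in replicate 1 and 176 in replicate 2. In the third intron of prx-1, a peroxisome assembly gene, it lay 61 bp upstream of cel-mir-8196b, with 214 in the pool, 107 in replicate 1 and 127 in replicate 2. The linc-154 sequence above therefore stands before a miRNA gene. At a weaker level, F36H1.17 on IV had its summit 38 bp upstream of cel-mir-51 with 123 in the pool, 49.6 in replicate 1 and 63.7 in replicate 2. K10H10.14 on II had it 40 bp upstream of the RNA gene K10H10.11, with 122 in the pool, 49.6 in replicate 1 and 74.8 in replicate 2.

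The remaining upstream summits were in an intron of B0361.11, 52 bp upstream of mir-2214 (95.5), in arl-13, 14 bp upstream of Y37E3.26 (103), and in vig-1, 25 bp upstream of F56D12.10 (73.9). The arl-13 region also lay between convergent 3' ends, those of arl-13 and rla-1. In the second intron of Y62F5A.9 on II the signal was 135 in the pool, 69.6 in replicate 1 and 69.1 in replicate 2, and the summit lay 123 bp upstream of Y62F5A.16, beside the mir-35 entry of RefSeq. The 16 regions 0 to 250 bp downstream of such a 5' end had a median of 67.2 and reached 110.9 at most, in T04C12.14, a gene named after its value had been seen. At F55G1.20, which holds the Y RNA gene yrn-1, they were 87.3 in the pool, 15.4 in replicate 1 and 66.4 in replicate 2. At cel-mir-48, a let-7 family miRNA on V, they were 51.0, 19.7 and 26.7.

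By host type, the highest antisense RNA host was F48C1.15 at 64.5, the highest lincRNA host linc-154, the highest miRNA host cel-mir-48 and the highest host among other non-coding RNAs F36H1.17. The highest pseudogene host was T26C11.3 on X, where an intron had 78.5 in the pool, 22.2 in replicate 1 and 56.5 in replicate 2.

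Some pseudogene hosts were broken copies of tRNA genes. Of 209 nuclear tRNA pseudogenes in RefSeq, 4 had a gene-internal summit inside or within 250 bp (1.91%), against 1.44% of RefSeq protein-coding genes, which are longer, and 0.104% of other pseudogenes. The summit was inside ZK380.t2, K10B2.t1 and Y22D7AR.t1. The rule sets tRNA genes aside but not their pseudogenes. Their sequences are shown whole, 5' to 3', from the RefSeq genome of the WBcel235 build, with a B box core (GTTCGANNC) in capitals where a match was found. They are ZK380.t2 (chrX:1643850-1643922, plus strand), Y69A2AR.t1 (chrIV:2659013-2659085, minus strand), Y22D7AR.t1 (chrIII:1743249-1743320, minus strand) and K10B2.t1 (chrII:6358367-6358438, minus strand).
ZK380.t2: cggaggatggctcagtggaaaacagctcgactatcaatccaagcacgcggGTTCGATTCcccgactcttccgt
Y69A2AR.t1: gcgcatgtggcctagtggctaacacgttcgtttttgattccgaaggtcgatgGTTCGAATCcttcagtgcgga
Y22D7AR.t1: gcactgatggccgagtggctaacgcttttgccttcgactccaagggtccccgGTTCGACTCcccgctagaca
K10B2.t1: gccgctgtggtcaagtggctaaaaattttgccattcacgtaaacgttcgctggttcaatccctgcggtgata

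Each differed from its closest annotated tRNA gene by 23 to 26 changed, added or lost bases over a length of 72 or 73. At ZK380.t2 the signal was 77.5 in the pool, 34.6 in replicate 1 and 50.5 in replicate 2. At K10B2.t1 it was 64.1, 16.6 and 45.2, and at Y22D7AR.t1 51.6, 14.3 and 34.6. The region in the eighth intron of Y69A2AR.31, beside Y69A2AR.t1 but not inside it, was the highest of them with 112.04 in the pool, 35.8 in replicate 1 and 71.0 in replicate 2. All had their higher value in replicate 2.

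Over all gene-internal regions the B box core was more frequent than in tiled windows and less frequent than elsewhere in the list. It was present in 10 of 155 exonic regions (6.45%, 3.54 to 11.5%) and 5 of 79 intronic regions (6.33%, 2.73 to 14.0%). Of all tiled windows 1.53% held it, of those centred on eligible exon 1.80%, and of those centred on eligible intron 1.30%. Of the other 1841 regions 259 held it (14.1%). The tRNA genes that the rule sets aside fall among these, and their part in the lower share here was not tested. The highest gene-internal regions with the B box core were F36H1.17, K10H10.14 and Y69A2AR.37 (94.1). CTGTTTCA, the upstream word of piRNA genes, was in 4 of 155 exonic regions (2.58%) and 0 of 79 intronic regions, which allows up to 3.80%, against 11 of the other 1841 (0.598%) and 2.02% of tiled windows. The highest with it were ift-74 (62.6), C47E12.13 (60.7) and sna-3 (56.6), all low.

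Words known from the whole list were mostly as frequent in intronic regions as in the rest and rarer in exonic ones. AAAGGCGC was in 7 of 79 intronic regions (8.86%) and 5 of 155 exonic regions (3.23%), against 8.15% of the rest, led by pals-1, linc-128 (92.7) and C44B9.2 (90.1). GCGAGACC was in 5 of 79 intronic regions (6.33%) and 3 of 155 exonic regions (1.94%), against 7.93% of the rest, led by mdt-19 (94.9), alh-6 (80.9) and lmd-3 (66.7). AAACGCGC was in 4 of 79 intronic regions (5.06%) and 0 of 155 exonic regions, which allows up to 1.94%, against 4.89% of the rest, led by Y62F5A.9, ari-1.4 (81.3) and natc-2 (69.1). GTACGGTA was in 1 of 79 intronic regions, that of lmd-3, and 1 of 155 exonic regions, that of ift-74 (0.645%), against 4.45% of the rest. Of windows centred on eligible exon, 0.263% held AAAGGCGC, 0.275% GCGAGACC, 0.195% AAACGCGC and 0.442% GTACGGTA. Of those centred on eligible intron, the shares were 1.10%, 0.784%, 0.502% and 0.707%.

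Intronic regions lay mostly in introns far longer than the usual worm intron, as do the bases that meet the rule. The introns with one had a median length of 844 bp, against 64 bp over 103780 introns of the longest transcripts, and 35 of 79 (44.3%) were longer than 1000 bp, against 7.09% of all. Of the eligible intron bases of longest transcripts, however, 48.8% lie in introns of that length, so no excess per base was seen in long introns. The shares are not measured alike, because a region was given the shortest intron of any transcript that held its summit. First introns held 22 and last introns 19. The median GC content within 100 bp was 39.3% over intronic regions, against 32.1% over eligible intron bases. Over exonic regions it was 37.8%, against 41.1% over eligible exon bases.

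Besides sre-45 and C33B4.4, the highest intronic regions with no other RNA gene 5' end within 250 bp were in lips-10, a lipase-related gene on II, in hgap-2 on II, in lea-1 on V and in pals-1 on I. In lips-10 the signal was 160 in the pool, 57.3 in replicate 1 and 111 in replicate 2. In hgap-2 it was 134, 53.7 and 87.8, and in pals-1 123, 43.3 and 95.04. Of these, the lips-10 and pals-1 introns were short, at 198 and 324 bp.

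The gene lea-1, which encodes a late embryogenesis abundant protein of desiccation tolerance, was the only host of 3 regions. Its first intron had a signal of 134 in the pool, 45.8 in replicate 1 and 88.4 in replicate 2. The other two lay in introns of 95 and 48 bp, at 84.3 and 54.6 in the pool. A region is usually 300 bp wide, so a summit in so short an intron cannot be told apart from one in its exons. This holds for 8 intronic regions in introns under 100 bp, among them those of pgl-1 and of snpc-3.4 itself. At snpc-3.4 on III the signal was 86.4 in the pool, 48.9 in replicate 1 and 33.1 in replicate 2. Any part of the GFP-FLAG construct in that value was not tested.

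By chromosome, exonic regions were rare on X. There were 2 on X, or 0.531 per Mb of eligible exon, against 10.4 per Mb on III, 9.39 on IV, 8.78 on I, 8.16 on II and 4.58 on V. In replicate 1 X held 1.06 per Mb and in replicate 2 0.796. None of the exonic regions on X lay within 250 bp of a 3' end: they were linc-154 and ZK380.t2. Intronic regions on X numbered 7, or 1.58 per Mb, against 2.62 to 4.53 per Mb on the autosomes. All nuclear regions together stood at 11.6 per Mb on X and at 29.96 on III, a smaller range.

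The regions nearest to the limit of 500 bp from a protein-coding 5' end were in zig-7 and par-5. That in zig-7 lay 502 bp from the 5' end of rpl-41.2 (signal 65.7), and that in par-5 lay 509 bp from a 5' end of par-5 (67.5). The nearest left out by it were in lbp-9 and T28F4.5, both at 499 bp (54.8 and 59.6). At the signal threshold, F14E5.8 (50.9) and cel-mir-48 (51.0) were just inside, and akt-1 and C01G10.9 (both 50.5) just outside.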

How the data were processed

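Peak lists of 2 biological replicates and of their pool were used. Per the deposited notes, the authors called each list against a control and thresholded the pool by irreproducible discovery rate. The deposited signal per region has no stated scale, and the deposited score was only described. The sources used here give no aligner, caller or depth. The control and ce10 lists were not used.

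Summits were placed on Ensembl release 115 (WBcel235, ce11, 1-based, every transcript's 5' end). Of 2778 genes without a symbol, 2758 took RefSeq's by equal coordinates. Non-coding genes overlap others, so a base counted as CDS, then 3' UTR, 5' UTR, non-coding exon and intron. Densities divide summits by bases meeting the same rule. Intervals (95%) are Wilson for shares and exact Poisson for densities, and cover counting error only; the limit for a count of 0 is 3 counts. Unique sequence means 31-base words. Nothing was tested: 1 group allows no contrast. The rule was checked on simulated positions. Members, lists and words were chosen with earlier results of these data known. Named were the 10 highest exonic and intronic regions, the highest of each host type, list and word, hosts of 3 or more, and those at the limits. The tools were SciPy 1.17.1, NumPy 2.4.6, matplotlib 3.10.9 and pandas 2.3.3 under Python 3.11.15.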

Additional observations from a re-analysis of the deposited data

How the results depend on the processing

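No paired analysis was possible because there is 1 group. The 234 regions (155 exonic, 79 intronic) became 87 (57 and 30) with the higher-signal part of the thresholded list, whose medians were 89.6 and 96.3. Then 0.672% of candidates passed, and 93.1% and 95.4% of regions were among the highest of replicates 1 and 2. The lower numbers and share and the higher medians follow from choosing by pooled signal. The overlaps are not independent of that choice, because both replicates are part of the pool. Without replicate 1 or 2 the numbers ranged from 230 to 382 in all, 156 to 251 exonic and 74 to 131 intronic, the larger from replicate 1 alone, with medians of 26.8 to 38.9 and 25.2 to 42.5 on each replicate's own scale. Alternatives were run for the numbers and median signals of regions, the share of candidates passing and the overlap with replicates, not for words, 3' ends, hosts or lists. Of these results, none moved by over 1.5 times or beyond its interval with the other distances, 5' ends, positions, gene sets and overlaps: from 165 regions at 1000 bp to 316 at 250 bp. Without those near other RNA genes 205 remained, with exonic and intronic medians of 62.5 and 64.3. Exonic densities rest on few bases where 3' ends of both strands meet.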
